A study of Mus musculus with 6 samples.

Results

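The 45 genes described here encode the proteins that copy DNA in the S phase of the cell cycle. They were chosen by name from a list of replication factors, with earlier results of these data known. They are 45 of the 21774 mRNA genes in the deposited table, each represented by its transcript with the highest mean value. RNA was sequenced from lung B cells of mice, pulled out with magnetic beads against B220, in 3 libraries from mice with severe asthma and 3 from control mice, all of genotype WT. The mice with severe asthma were given 10 μg of lipopolysaccharide (LPS, a bacterial cell wall component) and 25 μg of HDM, an extract of house dust mites, in a volume of 35 μl by the airway on days 0 to 2, and HDM without LPS daily for 8 days, from day 7 to day 14. Control mice were given buffer (PBS) alone by the same route. The comparison serves a study of the lymphoid follicles that arise around inflamed airways. Since no label ties each library to its own animal, every p-value reflects the spread between libraries, part of which may be technical. In bulk RNA, fewer cells of a type and less RNA per cell cannot be told apart.

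DNA replication begins at origins, where the origin recognition complex, Cdc6 and Cdt1 load the ring of the MCM proteins onto DNA before S phase. Cdc45 and the GINS complex then turn each ring into a working helicase, primase and polymerase alpha lay down primers, and polymerases delta and epsilon copy the strands, held to DNA by the clamp Pcna. Activated B cells in germinal centres are among the fastest dividing cells of the body, and many replication genes are known targets of E2F transcription factors, which are released when a cell commits to division.

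Most of the replication genes were higher in severe asthma. By limma on log2(value + 1), with Benjamini-Hochberg adjustment over 15759 genes and a threshold of 0.05, 39 of the 45 members rose (86.7%), 1 fell and 5 did not pass. Among all genes tested, 20.7% were called as risen and 14.4% as fallen (35.1% in either direction). The members' changes had a median of 1.00 on the log2 scale, against 0.06 over all genes tested, and ranged from -0.31 for Cdt1 to 3.21 for Rrm2. A rise of at least 2-fold was seen for 23 members (51.1%), beside 5.03% of all genes. The 3 severe asthma libraries lay above the 3 control libraries without overlap for 41 members, beside 31.6% of all genes, and below them for 1 member, beside 21.6% of all genes (53.3% in either direction). Scaling by total reads alone moved the median of all genes by more than 0.1, to -0.08, and turned the balance of calls: 1923 genes rose and 3112 fell, against 3262 and 2263 with the deposited adjustment. With RLE scaling 2390 rose and 2556 fell by edgeR, and 2485 rose and 2889 fell by DESeq2. The members rose in the same 3 settings in 33, 35 and 36 cases, and 1 fell in each. All values are the deposited library-size-adjusted reads, and every fold change is severe asthma minus control in the mean of log2(value + 1). The added 1 makes the changes of genes with few reads smaller. For Mcm10 and Gins2 they were still larger than the authors' deposited log2 fold changes, 3.04 against 2.93 and 2.71 against 2.58.

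**Figure D1:**
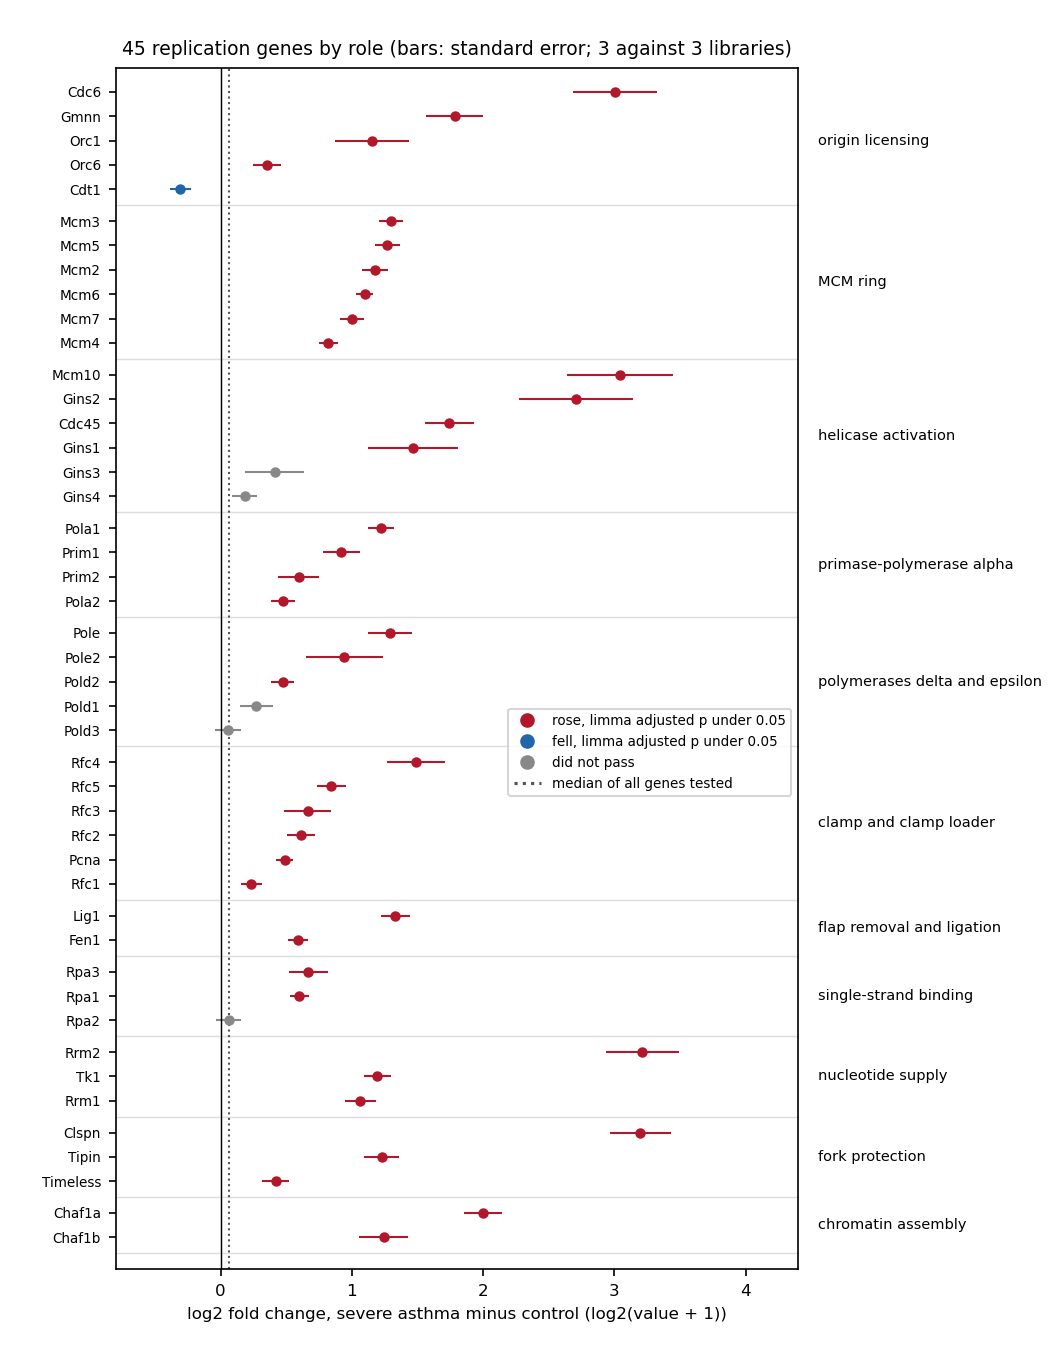
Log2 fold change of each of the 45 replication genes (x axis, severe asthma minus control, points with standard errors, 3 against 3 libraries), grouped by role. The points run from -0.31 for Cdt1 to 3.21 for Rrm2, 39 are coloured as risen, 1 as fallen and 5 as not passing, and the dotted line marks the median of all genes tested, 0.06.

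The libraries held 16498219 to 18054903 reads over the mRNA genes. The 10 B cell identity genes, among them Cd79a and Ms4a1, were high in every library and summed to 183940, 196160 and 200740 in severe asthma libraries 1 to 3, against 133090, 188590 and 170660 in control libraries 1 to 3. Markers of other cells moved with the groups. Of 12 macrophage genes 8 rose, and the list summed to between 108600 and 220100 in severe asthma and between 13212 and 31957 in control. Of 9 epithelial genes 8 fell, with sums of 4526 to 9789 in severe asthma and 27876 to 71787 in control, and all 7 endothelial genes fell, with sums of 5363 to 8419 in severe asthma and 16675 to 46473 in control. Control 1 had the highest epithelial and endothelial sums and the lowest B cell sum. No marker of these lists was at 0 in all libraries, and the part of these cells in the values of the replication genes was not tested. Of 7 fibroblast and smooth muscle genes 4 fell, of 7 plasma cell genes 3 rose, of 7 neutrophil genes 2 rose and 1 fell, and none of 9 T and NK cell genes or 5 erythroid genes passed. Of 9 germinal centre genes 8 rose, among them Mybl1, and Mki67, a marker of cycling cells, had 5194, 4423 and 6469 in severe asthma libraries 1 to 3, against 326, 234 and 716 in control libraries 1 to 3 (log2 fold change 3.80, adjusted p = 0.00391 by limma, and 0.0861 without both libraries numbered 1, an alternative chosen after the data were seen).

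When each library was scaled to the same sum of the B cell identity genes, an alternative chosen after the data were seen, 26 of the 45 members rose and 1 fell, while 814 of the 15759 genes rose and 1900 fell. The members' median log2 fold change was then 0.75 and that of all genes -0.19. The members that no longer passed were Orc1, Orc6, Pola2, Prim2, Pold2, Pole2, Pcna, Rfc1, Rfc3, Fen1, Rpa1, Rpa3 and Timeless, of which Rfc1 turned to -0.02. All 6 MCM ring genes and all of Cdc6, Gmnn, Rrm2 and Clspn still rose.

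The promoters of the members show a feature that the choice of genes did not use. The E2F consensus, searched on both strands as TTTGGCGC, TTTGCCGC, TTTCGCGC and TTTCCCGC, was found in the windows of 15 of the 36 members that have an entry in the RefSeq promoter table (41.7%), against 2.6% of 27025 genes in the table and 4.25% of the tested genes. Each window runs from 250 bases before a start in that table to 50 after it, on build GRCm38.p6. The 36 members have 41 windows, since Lig1 has 3 and Fen1, Mcm7 and Pold2 have 2 each, and a gene was counted where any of its windows held the letters. A start in the table is also the first base of the annotated gene for 23 of the 36 members, and elsewhere it can lie inside the gene. Neighbouring matches on opposite strands can share letters, as at Mcm5 and Mcm6. In the 250 bases before the start alone, 8 of the 36 members held the letters (22.2%), against 2.16% of all genes and 3.52% of the tested genes. The CCAAT box (CCAAT or ATTGG) was in the windows of 23 members (63.9%), against 41.1% of all genes and 42.3% of the tested genes, and the CHR letters (TTTGAA or TTCAAA) in those of 5 (13.9%), against 20.2% of all genes and 15.2% of the tested genes, a share near that of the members. A match describes letters only and is no evidence of binding.

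The stretches below are of the members whose changes frame the results: 4 that rose (Clspn, Cdc6, Mcm5 and Orc1), the 1 that fell (Cdt1) and 2 that did not pass (Pold1 and Pold3). Each is 30 bases on the strand of the gene, 5′ to 3′, with the letters of 1 E2F match in capitals. At Mcm5 the capitals mark 1 of 2 overlapping matches, and the other begins 149 bases before the table's start.
Clspn: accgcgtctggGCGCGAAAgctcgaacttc
Cdc6: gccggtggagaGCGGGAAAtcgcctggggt
Mcm5: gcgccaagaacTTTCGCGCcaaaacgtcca
Orc1: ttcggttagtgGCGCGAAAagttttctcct
Cdt1: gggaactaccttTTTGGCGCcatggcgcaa
Pold1: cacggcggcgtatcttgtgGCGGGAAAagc
Pold3: gagcgaagctgTTTCCCGCcggcgggagct
They lie at chr4:126556990-126557019 (plus strand) for Clspn, chr11:98908002-98908031 (plus) for Cdc6, chr8:75109345-75109374 (plus) for Mcm5, chr4:108579416-108579445 (plus) for Orc1, chr8:122568035-122568064 (plus) for Cdt1, chr7:44548766-44548795 (minus) for Pold1 and chr7:100121467-100121496 (minus) for Pold3. The letters begin 138 bases before the table's start at Cdc6, 153 before it at Mcm5 and 27 before it at Orc1, and after that start by 21 bases at Clspn, 32 at Cdt1, 39 at Pold1 and 17 at Pold3. That start lies downstream of the annotated gene's first base by 442 bases at Cdc6, 41 at Mcm5, 3749 at Orc1 and 23 at Clspn, and is that first base at Cdt1, Pold1 and Pold3. The 8 letters at Clspn and Orc1 are the same, as are those at Cdc6 and Pold1, so the same letters stand beside members that rose several-fold and members that did not pass.

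Longer stretches are given for Mcm6, which holds the letters at 3 places, and for Rrm2, which holds none in its window. Rrm2 had the largest log2 fold change, 3.21 ± 0.28 (SE). That of Clspn, which holds the letters, was close at 3.20 ± 0.24 (SE). Each stretch is the 250 bases before the start of the gene, with E2F letters in capitals.
Mcm6: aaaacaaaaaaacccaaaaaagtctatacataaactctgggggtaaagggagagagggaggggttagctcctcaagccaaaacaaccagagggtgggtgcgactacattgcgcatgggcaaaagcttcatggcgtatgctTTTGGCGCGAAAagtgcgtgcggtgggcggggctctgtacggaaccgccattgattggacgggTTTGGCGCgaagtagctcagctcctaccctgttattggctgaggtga
Rrm2: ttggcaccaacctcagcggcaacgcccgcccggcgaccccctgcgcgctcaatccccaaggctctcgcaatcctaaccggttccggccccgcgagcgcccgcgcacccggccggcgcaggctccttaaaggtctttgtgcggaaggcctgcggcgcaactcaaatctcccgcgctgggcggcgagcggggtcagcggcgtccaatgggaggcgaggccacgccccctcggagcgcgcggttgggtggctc
The Mcm6 stretch lies at chr1:128359706-128359955 (minus strand) and the Rrm2 stretch at chr12:24708004-24708253 (plus strand). The run of 12 capitals at Mcm6 is made of 2 overlapping matches on opposite strands. Among the 36 members, the 15 with the letters had a median change of 1.10 on the log2 scale and a range of -0.31 to 3.20, and the 21 without them a median of 0.84 and a range of 0.06 to 3.21. Of those with the letters 11 rose, and of those without them 20 rose.

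Origin licensing held both the widest spread and the only member that fell. Cdc6, the ATPase that joins the origin recognition complex to load the MCM ring, had 184, 135 and 230 reads in severe asthma libraries 1 to 3, against 16.7, 19.0 and 30.5 in control libraries 1 to 3. Every severe asthma library was more than 4 times the highest control library, and Cdc6 rose by a log2 fold change of 3.01 ± 0.32 (SE, n = 3 each; adjusted p = 0.00099 by limma). Cdt1, the other loading factor, had 2215, 1922 and 2112 in severe asthma libraries 1 to 3, against 2605, 2721 and 2405 in control libraries 1 to 3. The groups did not overlap, and Cdt1 fell by 0.31 ± 0.08 on the log2 scale (SE, n = 3 each; adjusted p = 0.0223 by limma). This call was lost without severe asthma 2 (adjusted p = 0.0893), without severe asthma 3 (0.0729), without control 2 (0.0518) and with no filter on low values (0.0827), and its log2 fold change lay between -0.56 and -0.25 over 20 alternatives. In the authors' deposited table the q-value of Cdt1 was 0.0579.

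Geminin (Gmnn), the protein that binds Cdt1 and blocks a further round of loading, moved the other way. It had 194, 230 and 199 in severe asthma libraries 1 to 3, against 48.1, 57.0 and 76.5 in control libraries 1 to 3, and rose by 1.79 ± 0.22 on the log2 scale (SE, n = 3 each; adjusted p = 0.00164 by limma). The log2 ratio of Cdt1 to Gmnn was 3.50, 3.06 and 3.40 in severe asthma libraries 1 to 3, against 5.73, 5.55 and 4.96 in control libraries 1 to 3. The ratio was lower by 2.09 in severe asthma, without overlap (exact permutation p = 0.1, two-sided, the smallest that 3 against 3 allows). Of the origin recognition complex, Orc1, its ATPase subunit, had 44.9, 44.8 and 53.6 in severe asthma libraries 1 to 3, against 18.7, 21.0 and 23.0 in control libraries 1 to 3 (log2 fold change 1.16, adjusted p = 0.0176 by limma). Its call was lost without severe asthma 2 (adjusted p = 0.0611) and without severe asthma 3 (0.0795). Orc6, the smallest subunit, had a log2 fold change of 0.36 (adjusted p = 0.0366 by limma), which did not pass with the replicate number as a block (adjusted p = 0.0517). It passed in 5 of 20 alternatives. The call of Orc6 was lost without any 1 severe asthma library (adjusted p = 0.103, 0.0887 and 0.133 without severe asthma 1, 2 and 3), without control 2 (0.0798) and without control 3 (0.0612).

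**Figure D2:**
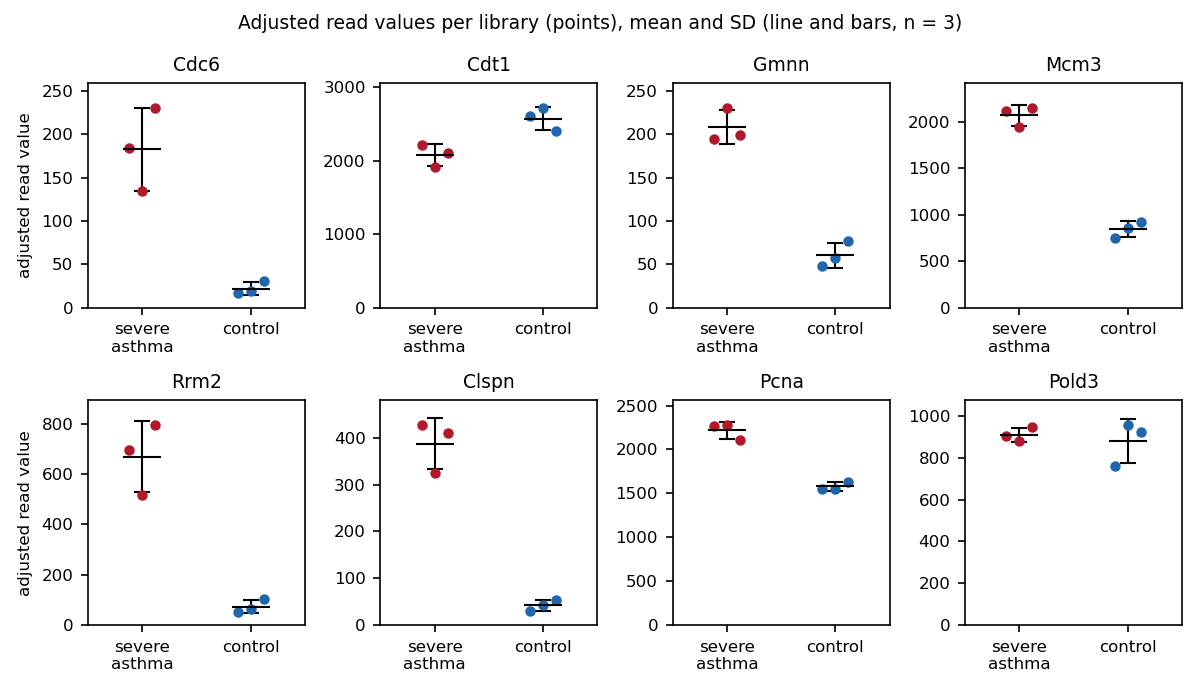
Adjusted read values (y axis, from 0) of 8 replication genes in each severe asthma library (left) and control library (right), with the mean and SD of 3 libraries. Cdc6, Rrm2 and Clspn show wide gaps between the groups, Cdt1 lies lower in severe asthma (1922 to 2215, against 2405 to 2721 in control) and the groups of Pold3 overlap.

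All 6 subunits of the MCM ring, the core of the replicative helicase, rose, by similar amounts. Mcm3, with the largest change, had 2121, 1944 and 2150 in severe asthma libraries 1 to 3, against 750, 859 and 921 in control libraries 1 to 3 (log2 fold change 1.30 ± 0.09, SE, n = 3 each; adjusted p = 0.000263 by limma). Mcm4, with the smallest, had 1606, 1455 and 1670 in severe asthma libraries 1 to 3, against 865, 889 and 916 in control libraries 1 to 3 (log2 fold change 0.82 ± 0.08, SE, n = 3 each; adjusted p = 0.000591 by limma). The 6 genes were also close in level: per kilobase of transcript they ranged from 439 to 683 in severe asthma, a spread of 1.56-fold, and from 233 to 286 in control, a spread of 1.23-fold. All 6 passed in all 20 alternatives.

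Of the 6 genes that activate the ring, 4 rose and 2 did not pass. Mcm10, which helps to start the helicase, had 159, 160 and 192 in severe asthma libraries 1 to 3, against 13.7, 14.0 and 39.0 in control libraries 1 to 3 (log2 fold change 3.04 ± 0.41, SE, n = 3 each; adjusted p = 0.00221 by limma). Control 3 was well above the other control libraries, and all severe asthma libraries were above it. Relative to Mcm2 on the log2 scale, Mcm10 was -3.62, -3.59 and -3.56 in severe asthma libraries 1 to 3, against -5.83, -5.88 and -4.66 in control libraries 1 to 3, a difference of 1.87 without overlap (exact permutation p = 0.1). Cdc45, the helicase partner of the ring, rose by 1.74 on the log2 scale.

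The 4 GINS subunits form 1 complex, of which Gins1 and Gins2 rose. Gins2 had 146, 123 and 122 in severe asthma libraries 1 to 3, against 9.79, 19.0 and 36.2 in control libraries 1 to 3 (log2 fold change 2.71 ± 0.44, SE, n = 3 each; adjusted p = 0.00448 by limma), and Gins1 rose by 1.47. Gins3 had 117, 109 and 149 in severe asthma libraries 1 to 3, against 79.6, 116 and 86.4 in control libraries 1 to 3, groups that overlap (log2 fold change 0.41, adjusted p = 0.184 by limma). Gins4 had 380, 442 and 396 in severe asthma libraries 1 to 3, against 350, 364 and 356 in control libraries 1 to 3, which do not overlap but did not pass (log2 fold change 0.18, adjusted p = 0.17 by limma). Per kilobase, the lowest and highest of the 4 subunits were 33.4 and 301 in severe asthma, a spread of 9.01-fold, and 5.55 and 264 in control, a spread of 47.6-fold. The log2 ratio of Gins1 to Gins4 was higher by 1.28 in severe asthma, without overlap (exact permutation p = 0.1). In the GENCODE annotation, 67.3% of the exon bases of Gins2 are shared with exons of Gse1 on the other strand, and whether strand was used in counting is not given in the sources used here, so the level of Gins2 is uncertain. Gse1 itself had a log2 fold change of 0.02 (adjusted p = 0.802 by limma). The call of Gins1 was lost without severe asthma 2 (adjusted p = 0.0692) and without severe asthma 3 (0.0726).

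**Figure D3:**
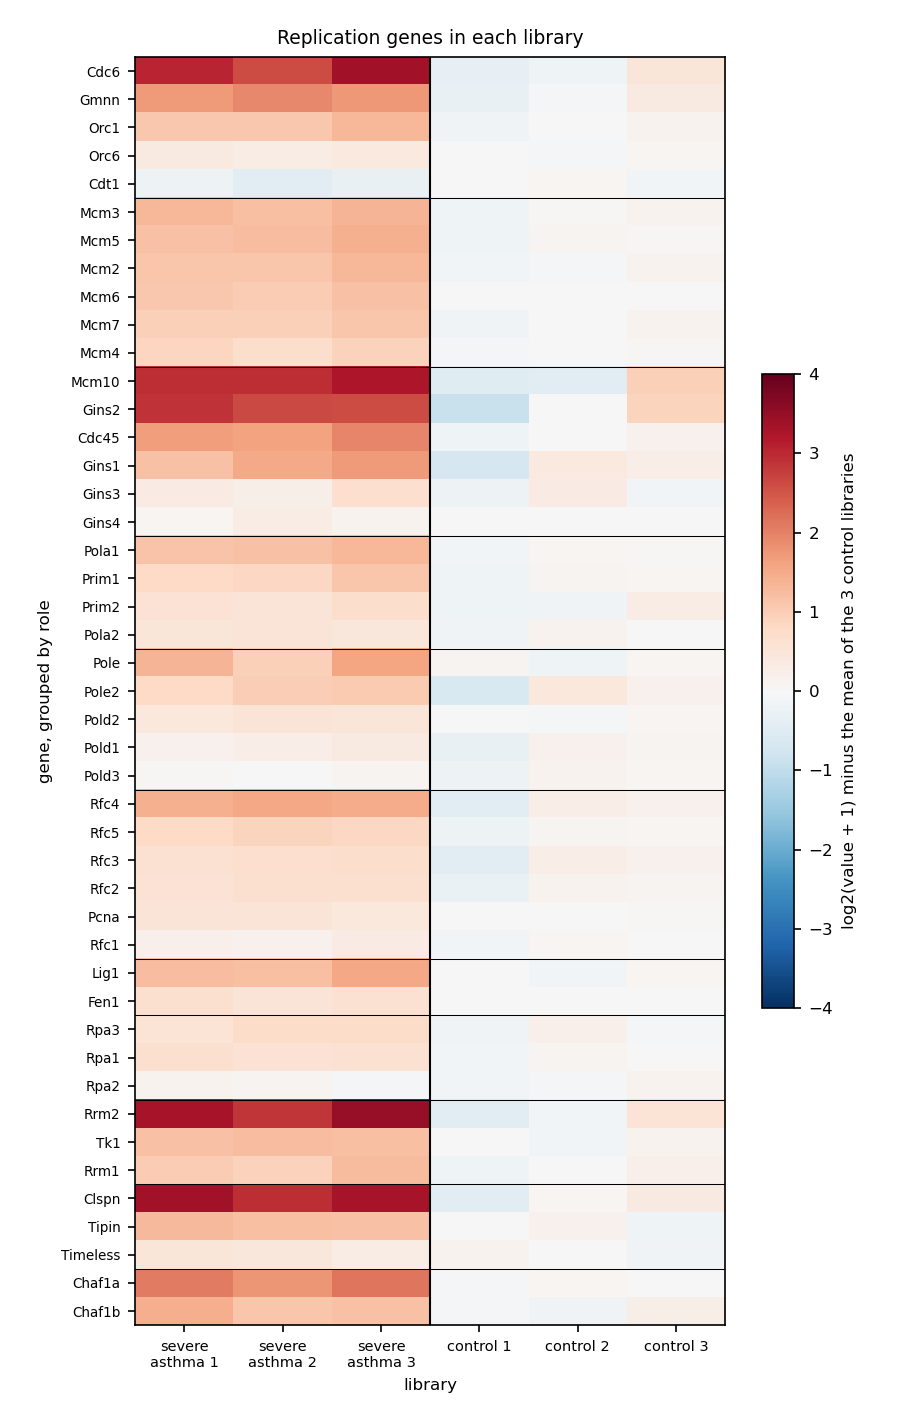
Each of the 45 replication genes (rows, grouped by role) in each library (columns), as log2(value + 1) minus the mean of the 3 control libraries (colour, red above and blue below). The severe asthma columns are red for most genes, deepest for Rrm2, Clspn, Cdc6, Mcm10 and Gins2, Cdt1 is pale blue there, and control 1 is the bluest of the control columns for many genes.

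All 4 genes of the primase and polymerase alpha complex, which makes the RNA and DNA primers, rose. Pola1, the catalytic subunit, had 639, 645 and 729 in severe asthma libraries 1 to 3, against 264, 303 and 294 in control libraries 1 to 3 (log2 fold change 1.22 ± 0.10, SE, n = 3 each; adjusted p = 0.000423 by limma). Pola2, its accessory subunit, had 825, 838 and 811 in severe asthma libraries 1 to 3, against 534, 651 and 595 in control libraries 1 to 3 (log2 fold change 0.48 ± 0.09, SE, n = 3 each; adjusted p = 0.00759 by limma). The primase subunits lay between them, Prim1 at 0.92 and Prim2 at 0.60. Prim2 passed in 12 of 20 alternatives, and its call was lost without severe asthma 1, 2 or 3 (adjusted p = 0.0596, 0.0705 and 0.0953) and without control 2 (0.0522).

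Of 5 subunits of the main copying polymerases 3 rose and 2 did not pass. Pole, the catalytic subunit of polymerase epsilon on the leading strand, had 576, 431 and 667 in severe asthma libraries 1 to 3, against 239, 200 and 234 in control libraries 1 to 3 (log2 fold change 1.29 ± 0.17, SE, n = 3 each; adjusted p = 0.00204 by limma). Pold1, the catalytic subunit of polymerase delta on the lagging strand, had 4167, 4443 and 4680 in severe asthma libraries 1 to 3, against 2988, 4125 and 3995 in control libraries 1 to 3. It did not pass (log2 fold change 0.27, adjusted p = 0.129 by limma), although the groups do not overlap, and passed with the replicate number as a block (adjusted p = 0.0352). Pold3, an accessory subunit of polymerase delta, had 905, 879 and 948 in severe asthma libraries 1 to 3, against 762, 956 and 925 in control libraries 1 to 3, groups that overlap (log2 fold change 0.05, adjusted p = 0.709 by limma). Its sign turned in 8 of 20 alternatives. Pold2 rose by 0.47 and Pole2 by 0.94 on the log2 scale, and Pole2 passed in 10 of 20 alternatives. The call of Pole2 was lost without severe asthma 1, 2 or 3 (adjusted p = 0.0755, 0.126 and 0.135) and without control 3 (0.066).

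The sliding clamp and its loader all rose, by modest amounts for the most part. Pcna, the clamp, had 2264, 2276 and 2108 in severe asthma libraries 1 to 3, against 1550, 1554 and 1634 in control libraries 1 to 3 (log2 fold change 0.49 ± 0.07, SE, n = 3 each; adjusted p = 0.00223 by limma). Its level per kilobase was 1460 in severe asthma, the highest of the 35 members with an annotated transcript length, and 1041 in control, where Cdt1 (1177) and Pold1 (1072) were higher. The genome annotation also holds processed pseudogenes named for Pcna, and reads shared with them cannot be told apart here. Rfc4, a loader subunit, had 201, 217 and 208 in severe asthma libraries 1 to 3, against 54.0, 89.0 and 82.9 in control libraries 1 to 3 (log2 fold change 1.49 ± 0.22, SE, n = 3 each; adjusted p = 0.0032 by limma). Rfc1, the large loader subunit, had 2793, 2719 and 2994 in severe asthma libraries 1 to 3, against 2222, 2561 and 2450 in control libraries 1 to 3. Its log2 fold change of 0.23 ± 0.08 passed narrowly (SE, n = 3 each; adjusted p = 0.0485 by limma) and passed in 6 of 20 alternatives. The call of Rfc1 was lost without severe asthma 1, 2 or 3 (adjusted p = 0.101, 0.0931 and 0.173), without control 1 (0.0615) and without control 3 (0.0992). Rfc2, Rfc3 and Rfc5 rose by 0.61, 0.66 and 0.84, and Rfc2 and Rfc4 share 15.1% and 12.7% of their exon bases with Lat2 and Eif4a2 on the other strand. The call of Rfc3 was lost without severe asthma 1, 2 or 3 (adjusted p = 0.0586, 0.0933 and 0.0895).

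Both genes that finish the lagging strand rose. Lig1, the ligase that seals Okazaki fragments, had 1048, 1027 and 1294 in severe asthma libraries 1 to 3, against 451, 410 and 471 in control libraries 1 to 3 (log2 fold change 1.33 ± 0.11, SE, n = 3 each; adjusted p = 0.000453 by limma). Fen1, the nuclease that removes the primer flap, had 794, 732 and 782 in severe asthma libraries 1 to 3, against 515, 510 and 506 in control libraries 1 to 3 (log2 fold change 0.59 ± 0.07, SE, n = 3 each; adjusted p = 0.00185 by limma). An antisense gene, Gm10143, covers 78.8% of the exon bases of Fen1, so its reads may include antisense ones.

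Of the 3 subunits of replication protein A, which coats single-stranded DNA at the fork, 2 rose. Rpa3, the small subunit, had 210, 244 and 240 in severe asthma libraries 1 to 3, against 133, 167 and 137 in control libraries 1 to 3 (log2 fold change 0.67 ± 0.15, SE, n = 3 each; adjusted p = 0.0135 by limma), and Rpa1, the large subunit, rose by 0.60. The call of Rpa3 was lost without severe asthma 2 (adjusted p = 0.0662) and without severe asthma 3 (0.0656). Rpa2, the middle subunit, had 602, 589 and 538 in severe asthma libraries 1 to 3, against 514, 538 and 604 in control libraries 1 to 3. The groups of Rpa2 overlap (log2 fold change 0.06, adjusted p = 0.636 by limma), and its sign turned in 7 of 20 alternatives.

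Nucleotide supply held the largest log2 fold change, that of Rrm2, which was close to the 3.20 of Clspn. Rrm2, the small subunit of ribonucleotide reductase that is made in S phase, had 695, 515 and 794 in severe asthma libraries 1 to 3, against 51.1, 65.0 and 103 in control libraries 1 to 3 (log2 fold change 3.21 ± 0.28, SE, n = 3 each; adjusted p = 0.000652 by limma). Rrm1, the large subunit, had 1532, 1458 and 1821 in severe asthma libraries 1 to 3, against 682, 747 and 872 in control libraries 1 to 3 (log2 fold change 1.06 ± 0.12, SE, n = 3 each; adjusted p = 0.00117 by limma). The log2 ratio of Rrm2 to Rrm1 was -1.14, -1.50 and -1.20 in severe asthma libraries 1 to 3, against -3.71, -3.50 and -3.06 in control libraries 1 to 3, higher by 2.15 in severe asthma without overlap (exact permutation p = 0.1). Rrm2b, the small subunit used outside S phase, is no member and did not pass (log2 fold change 0.35, adjusted p = 0.159 by limma), and the log2 ratio of Rrm2 to Rrm2b was higher by 2.86. Tk1, the cytosolic thymidine kinase, rose by 1.20, and its log2 ratio to the mitochondrial Tk2 was higher by 0.82 in severe asthma.

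All 3 fork protection genes rose. Clspn (claspin), the checkpoint adaptor at the fork, had 427, 325 and 411 in severe asthma libraries 1 to 3, against 30.4, 43.0 and 52.6 in control libraries 1 to 3 (log2 fold change 3.20 ± 0.24, SE, n = 3 each; adjusted p = 0.000291 by limma). Timeless, which works with Tipin to keep the fork intact, had 536, 526 and 470 in severe asthma libraries 1 to 3, against 422, 377 and 348 in control libraries 1 to 3 (log2 fold change 0.42 ± 0.11, SE, n = 3 each; adjusted p = 0.0197 by limma). Timeless passed in 12 of 20 alternatives, and its call was lost without severe asthma 1 (adjusted p = 0.0664), severe asthma 2 (0.0815) or control 3 (0.0658). The log2 ratio of Clspn to Timeless was higher by 2.78 in severe asthma without overlap (exact permutation p = 0.1), and Tipin rose by 1.23. Across the 10 pairs compared, including Orc1 with Orc2, Rfc3 with Rfc1 and Pole2 with Pole3, the ratios did not overlap between the groups. Each had an exact permutation p of 0.1, the smallest that 3 against 3 allows, and 0.1 after Benjamini-Hochberg adjustment. Of single genes tested, 53.3% did not overlap in either direction, and the share among other gene pairs was not computed. The pairs were drawn from genes chosen with earlier results of these data known.

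Both genes of chromatin assembly factor 1, which puts histones onto new DNA behind the fork, rose. Chaf1a had 446, 359 and 470 in severe asthma libraries 1 to 3, against 99.3, 112 and 104 in control libraries 1 to 3 (log2 fold change 2.00 ± 0.14, SE, n = 3 each; adjusted p = 0.000291 by limma). Chaf1b had 218, 175 and 180 in severe asthma libraries 1 to 3, against 74.7, 72.0 and 94.0 in control libraries 1 to 3 (log2 fold change 1.24 ± 0.19, SE, n = 3 each; adjusted p = 0.00351 by limma). The annotation places 52.5% of the exon bases of Chaf1a on those of Ubxn6 on the other strand, and Ubxn6 had a log2 fold change of 0.20 (adjusted p = 0.0402 by limma).

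Members with few reads in control had the larger changes. The 13 members with a control mean under 100 had a median change of 1.74 on the log2 scale, and the 32 with a higher control mean had 0.67 as their median and 2.00 as their maximum. Across the 45 members, Spearman's rho between the control mean and the fold change was -0.633, as a description only, since both use the same control values. The 5 members past a log2 fold change of 2 were Rrm2, Clspn, Mcm10, Cdc6 and Gins2. The sum over the 45 members was 42299, 41182 and 44824 in severe asthma libraries 1 to 3, against 24512, 27953 and 27824 in control libraries 1 to 3. Severe asthma 3 was the highest library of its group for 26 members, and control 1 was the lowest of its group for 35. Without both libraries numbered 1, an alternative chosen after the data were seen, 37 members rose and 1 fell. Of the 15759 genes tested, 3426 rose and 2631 fell in that setting.

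**Figure D4:**
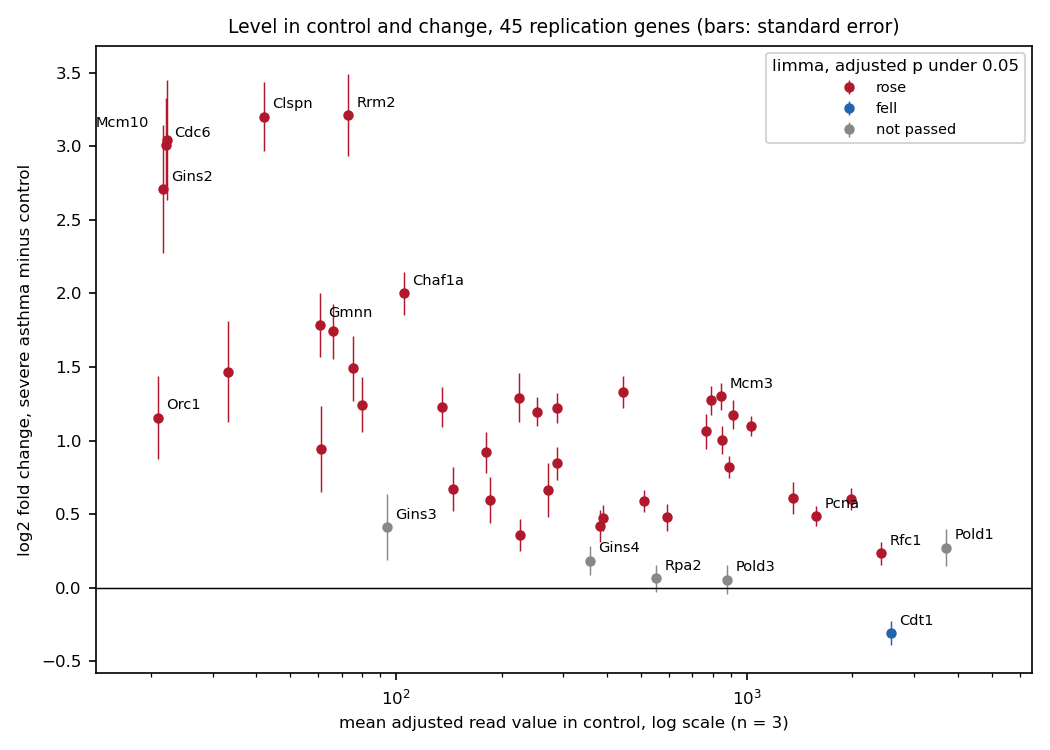
Log2 fold change of the 45 replication genes (y axis, severe asthma minus control, bars are standard errors) against their mean adjusted reads in control (x axis, log scale, 3 libraries, not divided by transcript length). The changes above 2 belong to genes with control means under 100, and Cdt1, with a control mean of 2577, lies below 0.

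Other parts of the replication network were followed through 6 further lists. Of 68 other replication genes, 38 rose (55.9%), 1 fell and 29 did not pass, and their median change was 0.37 on the log2 scale. Among all genes tested 20.7% rose and 14.4% fell, shares that also stand beside the count of each list below. With scaling by the B cell identity genes, chosen after the data were seen, 19 of the 68 rose and 2 fell. Among 15 other subunits of polymerases and forks 11 rose and none fell. They were led by Pclaf, a Pcna-binding protein, with 948, 839 and 1045 in severe asthma libraries 1 to 3, against 18.6, 30.0 and 78.7 in control libraries 1 to 3 (log2 fold change 4.69 ± 0.50, SE, n = 3 each; adjusted p = 0.0024 by limma). Pold4, the small subunit of polymerase delta, rose by 0.80, the nuclease Dna2 by 1.84 and Top2a, the topoisomerase that untangles copied DNA, by 3.13 (adjusted p = 0.0565 without both libraries numbered 1), while Pole4 and Chtf8 had 0.16 and 0.18 and did not pass.

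In nucleotide supply 7 of 10 genes rose, among them Dut, the dUTPase, by 1.47 and Dck, deoxycytidine kinase, by 0.64. Samhd1, which breaks down deoxynucleotides, averaged 10898 in severe asthma and 11492 in control and did not pass (log2 fold change -0.07). Of 12 chromatin factors 8 rose, with Asf1b, a histone chaperone, at 2.64, Uhrf1, which recruits the maintenance methyltransferase, at 2.73 and Dnmt1, that methyltransferase, at 0.85. Of 9 checkpoint genes 3 rose, Chek1 by 1.82, Wee1 by 1.17 and Rad9a by 0.39, while the kinase Atr had 0.07 and did not pass. Of 7 genes of translesion synthesis 3 rose, Polh by 1.12, Usp1 by 0.44 and Rev1 by 0.49. The call of Rad9a was lost without severe asthma 1, 2 or 3 (adjusted p = 0.0614, 0.116 and 0.0975), without control 3 (0.0718), with no filter on low values (0.128) and with the count tests on recovered reads. With scaling by the B cell identity genes, Dck, Usp1 and Rev1 no longer passed, and Samhd1 passed as fallen (log2 fold change -0.32, adjusted p = 0.0365 by limma).

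Of 15 other genes of licensing and origin firing 6 rose and 1 fell. Ticrr, which brings Cdc45 to origins, rose by 2.32, Dbf4, the activator of the Cdc7 kinase, by 0.65, and the helicase Recql4 by 1.08. With scaling by the B cell identity genes, neither Dbf4 (adjusted p = 0.1) nor Orc2 (0.754) passed, and with no filter on low values Recql4 did not (0.0504). Cdc7 itself had 0.21 and did not pass. Of the other origin recognition subunits, Orc2 rose by 0.31, and Orc3, Orc4 and Orc5 had -0.00035, 0.17 and 0.15 and did not pass, nor did Mcmbp, an MCM-binding protein, at -0.04. Donson, a replication fork protein, had 816, 919 and 822 in severe asthma libraries 1 to 3, against 1003, 1232 and 1373 in control libraries 1 to 3, and fell by 0.49 ± 0.12 on the log2 scale (SE, n = 3 each; adjusted p = 0.0182 by limma). The groups did not overlap. The call of Donson was lost without severe asthma 1, 2 or 3 (adjusted p = 0.0539, 0.0508 and 0.0735), without control 3 (0.0531) and with no filter on low values (0.0945). The call of Orc2 was lost without severe asthma 1, 2 or 3 (0.0667, 0.13 and 0.105), without control 3 (0.0549) and with every count test on recovered reads (0.0675 to 0.127).

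**Figure D5:**
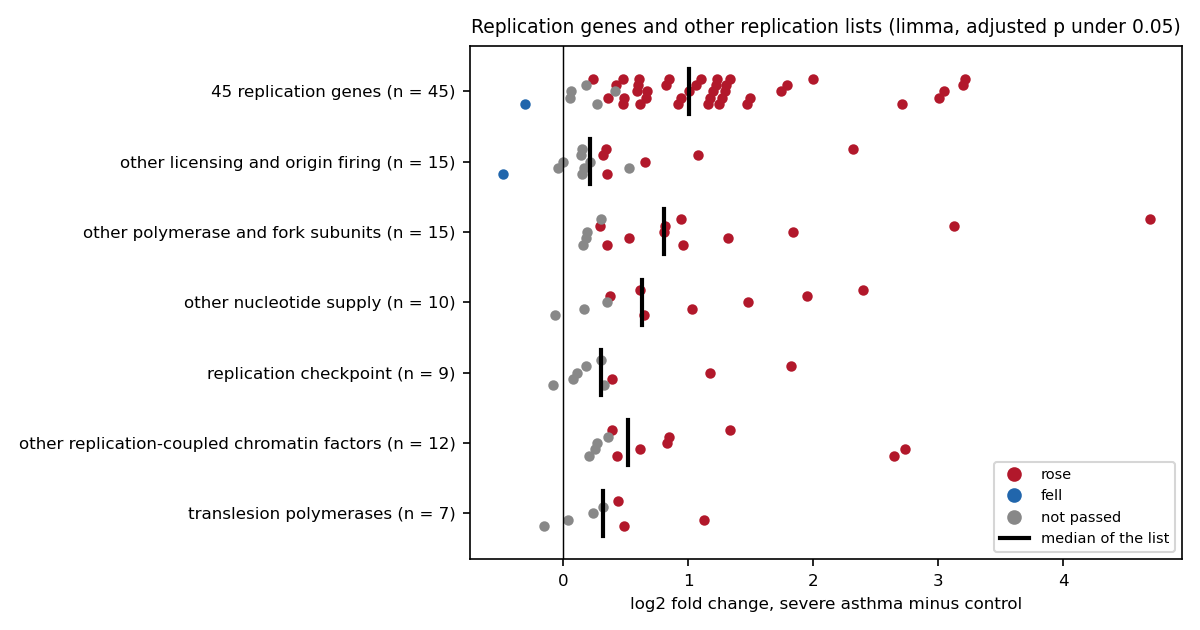
Log2 fold changes (x axis, severe asthma minus control) of the 45 replication genes and of 6 lists of other replication genes, 1 point a gene, coloured by its call, with a bar at each median. The median is 1.00 for the 45 genes and lies between 0.21 and 0.80 for the other lists, where Pclaf lies farthest right at 4.69 and Donson farthest left at -0.49.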

How the data were processed

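Polyadenylated RNA was sequenced from 6 libraries, 3 from mice with severe asthma and 3 from control mice. The authors deposited 1 table of mRNA transcripts whose per-library signal is an adjusted read number, not a raw count. No header names the tool that adjusted it. Each of 429494 values above 0.5 reads could be turned back into a whole number of reads (100% within 0.05) by inverting the quantile adjustment of edgeR with 1 dispersion of 0.0474, and rebuilt within 0.001. Besides reads, the deposited table gives each transcript a log2 fold change, a p-value and a q-value from a test of the authors, which is not given in the sources used here. Build mm10, HTSeq 0.11.2, HISAT2 2.1.0 and bcl2fastq are listed in the submitters' processing notes, whose text on each step was not used here. The use of strand in counting is not given in the sources used here.

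Genes were represented by the transcript with the highest mean over 6 libraries, since isoforms share reads. Values were tested as log2(value + 1) with limma-trend and robust empirical Bayes (limma 3.58.1, R 4.3.3), two-sided, over the 15759 of 21774 genes whose mean was 1 or more, and p-values were adjusted by Benjamini-Hochberg over all of them and a threshold of 0.05. All 45 members passed the filter. The plan named limma for adjusted values and a count test for whole counts, and the values were adjusted. The count tests on recovered reads were alternatives (edgeR 4.0.16, DESeq2 1.42.0), as were voom, other pseudocounts, filters and scalings, the second transcript of genes with several, a block for the replicate number and leaving out each library. Genes with a single transcript, 16 of the members among them, kept it in the second-transcript alternative. The fit was also run on simulated reads with 1 dispersion for all genes, and the outcome is not reported here. Such a run does not measure the error rate in these libraries. Deviations of same-numbered libraries from their group means had Pearson correlations of 0.414, 0.128 and 0.14 for numbers 1 to 3. Off-number pairs reached 0.2, above the values for numbers 2 and 3, so pairing by number is not established. The numbers are all that ties the libraries, and the main test was unpaired, with the replicate block as an alternative.

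The members and lists were chosen with earlier results of these data known, so no list has a test or an adjustment of its own. By rule, values per library are given for the members with the largest and smallest change in each role and for every member that fell or did not pass. From each other replication list, up to 3 genes with the smallest p, every gene that fell and up to 2 of the highest mean that did not pass were named. Orc2, Orc4, Orc5, Cdc7, Tk2 and Pclaf fall outside this rule, as do the values per library of Gmnn, Orc1, Gins2 and Pcna. They were chosen after their values were seen. Some genes that this rule names are not reported here. Promoter sequences and gene positions come from RefSeq (GRCm38.p6, the assembly of mm10), transcript lengths (35 of 45 members) and overlapping exons from GENCODE M21, read with Python 3.11.15.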

Additional observations from a re-analysis of the deposited data

How the results depend on the processing

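Of the 39 members that rose, 24 passed in the same direction in all 20 alternatives and 15 were lost in at least 1. With no filter on low values 1699 genes were called in all, and 10 member calls were lost. Leaving out each library in turn gave 2303 to 5645 called genes, the lowest without severe asthma 2 and 2409 without severe asthma 3, where 30 and 31 members rose. With the replicate block 6242 genes were called and 39 members rose, with Orc6 lost and Pold1 gained, and no other member call changed. Scaling by total reads alone gave a member median of 0.857. Scaling by the B cell identity genes, chosen after the data were seen, gave a member median of 0.751, 2714 called genes and 21 called genes among the other replication lists, against 39 with the deposited adjustment. It also turned Gins4 to -0.0679, Rfc1 to -0.0176, Pold3 to -0.199 and Rpa2 to -0.189. Pold3 and Rpa2, neither of which passed, also changed sign with total reads (-0.0920 and -0.0824), edgeR TMM (-0.0148 and -0.0021), edgeR RLE (-0.0400 and -0.0282), DESeq2 (-0.0402 and -0.0287), voom (-0.0102 and -0.00332) and without both libraries numbered 1, also chosen after the data were seen (-0.0435 and -0.0188). Among the named genes of the other lists that did not pass with the deposited adjustment, B cell scaling turned Cdc7 to -0.0372, Orc4 to -0.0869, Orc5 to -0.103, Pole4 to -0.0956, Chtf8 to -0.0722 and Atr to -0.178. Atr also changed sign with total reads (-0.0712), edgeR RLE (-0.0202), DESeq2 (-0.0204) and without both libraries numbered 1 (-0.00326). Leaving out 1 library in turn gave values of -0.0302 to 0.146 for Atr, -0.102 to 0.0192 for Mcmbp, -0.176 to 0.0223 for Samhd1 and -0.0540 to 0.0712 for Orc3. Leaving out 1 library gave Pold3 values of -0.0476 to 0.116. In the 250 bases before the start alone, 8 members held the E2F letters, against 15 in the whole window. The cause of these changes was not tested. Depth was 16498219 to 18054903 reads, and the largest fold changes rest on control means of under 100 reads.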

Other observations

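In the authors' deposited table of called genes, which keeps genes past 1 in either direction on the log2 scale with q up to 0.05, 21 of the 45 members are among 2977 genes. That table holds called genes only, so the share of all genes called is not given beside this count. Of 23174 genes annotated in the authors' deposited biological process terms, 2586 were called. In the authors' deposited table of all transcripts, 31 of the 45 kept transcripts had a q-value under 0.05. The share of all transcripts under that q-value was not computed, so this count has no background beside it. Of the authors' deposited terms, the biological process DNA replication held 50 called genes of 243 (q = 0.00011), 20 of them members. DNA replication initiation held 11 of 29 (q = 0.000972), 9 of them members, in the authors' deposited table. The pathway DNA replication of KEGG held 9 of 35 (q = 0.0971), 8 of them members, in the authors' deposited table. Of 8980 genes annotated in the KEGG pathways there, 1153 were called.

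All 132 member transcripts with a mean of at least 1 changed in the direction of the kept transcript of their gene. The 132 include the 45 kept transcripts, which match themselves by definition, and isoforms of a gene share reads. The same share over the transcripts of all genes was not computed. Of the 45 members, 29 have several transcripts in the table, at most 12. Per kilobase of transcript, Pold1 was at 1283 in severe asthma and 1072 in control, and Cdt1 at 952 in severe asthma and 1177 in control, where Cdt1 was the highest of the 35 members with an annotated length. The lowest in control was Cdc6, at 39.6 in severe asthma and 4.78 in control.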
